A study of Mus musculus with 8 samples.

Results

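The cells described here are the CD4 alpha-beta T cells of the neonatal mouse lung. They were selected on raw counts of unique molecular identifiers (UMIs, tags that mark each captured RNA molecule once). A cell was taken when it held at least 1 UMI of the CD3 genes Cd3e, Cd3d and Cd3g together, at least 1 UMI of Trac (the T cell receptor alpha constant region) and at least 1 UMI of Cd4, with 0 UMIs of Trdc (the delta chain), of Cd8a and Cd8b1, and of the B cell gene Cd79a. Of 11806 cells, 54 met this rule, which is 0.457% of the cells (exact binomial 95% interval 0.344% to 0.596%, counting error only). They were compared with 188 CD8 T cells, chosen by the same T cell conditions but with at least 1 UMI of Cd8a or Cd8b1 and 0 of Cd4, and with the 11752 other cells of the table. The genes of the rule are high or at 0 in these cells by construction and are no result.

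The study sorted endothelial, epithelial and immune cells from the lungs of 5-day-old wild-type (WT) C57BL6/J pups in a model of bronchopulmonary dysplasia (lung disease that follows very early birth) and asked about type 2 immune polarization. All pups had received lipopolysaccharide before birth, at day 14 of gestation. They were then kept in 65% oxygen (hyperoxia, 4 libraries) or in 21% oxygen (air, 4 libraries). The lungs were frozen, thawed and stained before the sort, so the T cells had passed through a freezing step and a gate. No column name in the table could be tied to a library. Hyperoxia and air were therefore not compared, the table counts as 1 pooled sample, and the values below carry no test and no replicate error.

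CD4 T cells are the helper lineage of the adaptive immune system: their T cell receptor recognises peptides held by MHC class II molecules, and the CD4 protein binds the same molecules. They leave the thymus as naive cells that circulate through lymphoid organs, and after activation they help other cells through CD40 ligand and secreted cytokines. Regulatory T cells, which carry the transcription factor Foxp3, are a branch of the CD4 lineage that restrains immune responses. CD8 T cells recognise peptides on MHC class I and are prepared for killing. In early life many T cells found in tissues have recently left the thymus.

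The 54 CD4 T cells held 324440 UMIs and the 188 CD8 T cells 1428335 UMIs. A CD4 T cell held 4565 UMIs and 1819 genes in the median, against 5610.5 UMIs and 1973.5 genes in a CD8 T cell. The deepest CD4 T cell held 20716 UMIs, or 6.39% of the UMIs of all CD4 T cells. Counts were summed over the cells of a gate and divided by their total to give CPM (the counts of a gene per 1000000 UMIs), and each CPM carries an exact Poisson interval that covers counting error only. The table gave 8 runs of barcodes, which are stretches in which the barcodes stand in alphabetical order. Between runs, 31 cells had a barcode that also occurred in another run, and 0 of these were CD4 T cells.

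Cd4 itself was found at low counts in the cells selected on it. Its gene, at chr6:124864692-124888221 on the minus strand of mm10, gave 90 UMIs in all, with 35 cells at 1 UMI, 12 cells at 2 UMIs and 7 cells at 3 or more, and 7 UMIs in the highest cell. Most CD4 T cells were thus called from a single molecule. The Cd8a and Cd8b1 genes that define the comparison cells had a median of 4 UMIs per cell. Within the T cell gate of 367 cells, CD4 T cells made up 14.7% (11.3% to 18.8%), CD8 T cells 51.2% (46.0% to 56.4%), and 121 cells showed neither Cd4 nor Cd8 UMIs. The ratio between the gates follows the detection of these genes as well as the number of cells, and these cannot be told apart here.

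Just inside the limit, the 35 cells with 1 UMI of Cd4 had 175 CPM of Cd40lg, 39.6 CPM of Foxp3 and 1171 CPM of Lef1. The 19 cells with at least 2 UMIs had 108 CPM of Cd40lg, 74.5 CPM of Foxp3 and 1740 CPM of Lef1. Just outside it, the 121 T cells with neither Cd4 nor Cd8 UMIs had 67.4 CPM of Cd40lg, 27.6 CPM of Foxp3 and 780 CPM of Lef1. These cells thus carried Cd40lg at a level between those of the CD4 and the CD8 T cells, and 9 of them held Foxp3.

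The label was checked against genes that took no part in the rule. Lef1 and Tcf7, transcription factors of naive T cells, were present in 50 and 47 of the 54 cells, and 53 of 54 held at least 1 of them. So did 182 of 188 CD8 T cells, so these 2 genes bear on T cell identity and not on the CD4 label. In epithelial cells, which should lack both and had a deeper median of 6698 UMIs, Lef1 was found in 3.50% and Tcf7 in 5.24% of 572 cells. Markers of B cells, of type 2 innate lymphoid cells, of fibroblasts and of red cells were at 0 UMIs in all 54 cells for every marker listed, of which Cd79a was at 0 by the rule. Of the endothelial markers, Cdh5, Cldn5 and Cavin2 were at 0, while Pecam1, which some lymphocytes also carry, gave 130 UMIs in 32 cells. Of the 4 thymocyte markers, the recombination genes Rag1, Rag2 and Dntt were at 0 as well, and Ptcra gave 1 UMI in 1 cell. A count of 0 in 54 cells, bounded by 3 counts, allows up to 5.56% of such cells to hold a detected UMI. Of the dendritic and neutrophil markers 1 and 5 UMIs were found, of the monocyte markers 20 and of the alveolar type 1 markers 27. The NK markers gave 12 UMIs in 2 cells. Of the 4 gamma-delta markers listed, 2 were in the table: Trdc, at 0 by the rule, and Cd163l1, with 4 UMIs. The gamma chain genes Tcrg-C1, Tcrg-C2 and Tcrg-C4 gave 2, 9 and 5 UMIs, all in 1 cell.

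Transcripts of other cells were present at low levels and are given here because they touch several results. The 6 macrophage markers summed to 450 CPM in CD4 T cells and 458 CPM in CD8 T cells. Nearly all of it lay in few cells: of 139 Lyz2 UMIs in the CD4 T cells, 130 were in 2 cells, with 77 and 53 UMIs. The alveolar type 2 transcript Sftpc, which encodes a surfactant protein, was found in 29.6% of CD4 T cells and 16.5% of CD8 T cells. Its part in the other results was not tested.

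**Figure D1:**
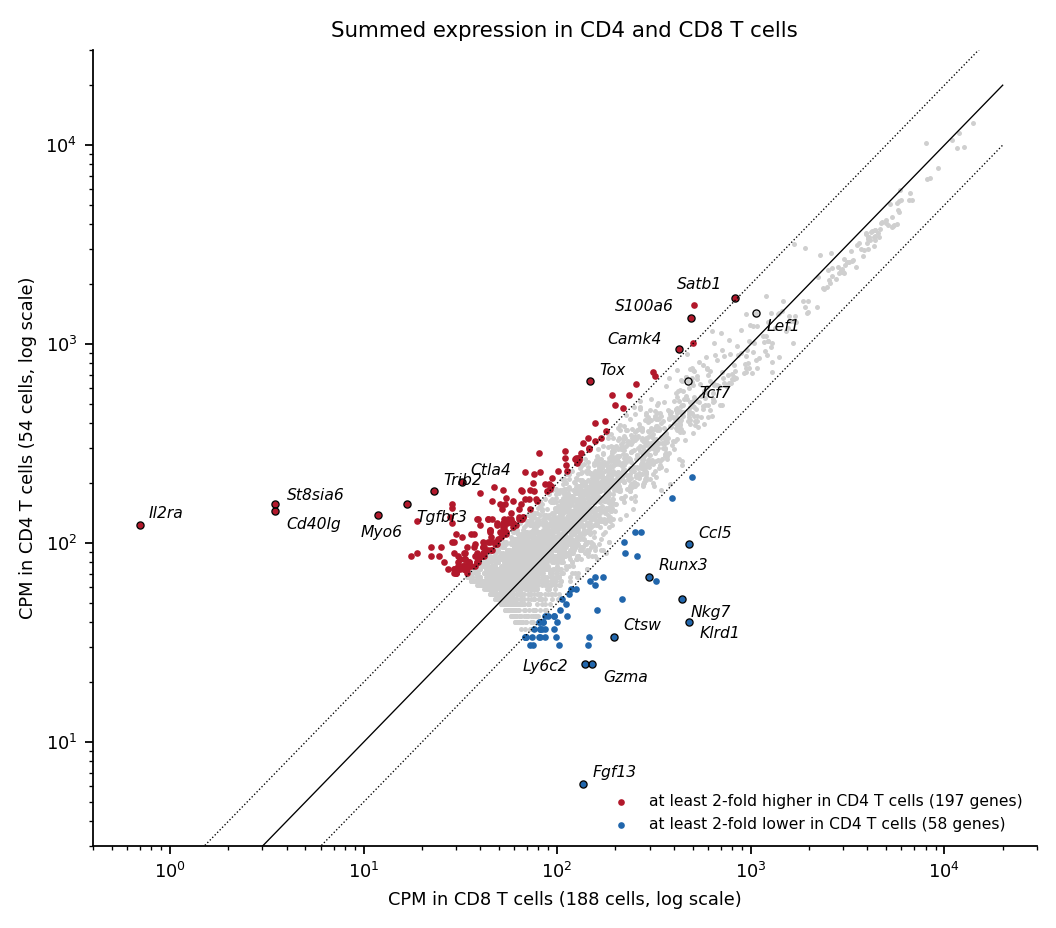
Summed CPM of each gene in the 54 CD4 T cells (vertical) against the 188 CD8 T cells (horizontal), both on log scales, for the 3143 genes with a mean of both CPM of at least 50, gate genes left out. The solid line marks equal CPM and the dotted lines a 2-fold ratio. Most genes lie between the dotted lines, Il2ra, St8sia6 and Cd40lg stand far to the left, and Klrd1, Nkg7 and Fgf13 far below.

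Most genes had similar levels in the 2 lineages. Of 3143 genes with a mean CPM of at least 50, 197 (6.27%) were at least 2-fold higher in CD4 than in CD8 T cells and 58 (1.85%) were at least 2-fold lower. The median log2 ratio of all these genes was 0.17, and ratios are given without correction for that shift. In 5 of the 197 genes more than 50% of the UMIs came from 1 cell. A gene under 50 CPM in 1 gate passed the limit through the other, so its direction was fixed by the filter. The counts depend on which cells enter: without run 7, which held 26 of the 54 cells, 299 genes were higher and 119 lower, and with at least 2 UMIs of Cd4 per cell, which left 19 cells, 497 were higher and 110 lower. With each cell thinned to 2000 UMIs the counts were 337 and 130.

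Cd40lg (chrX:57212143-57224042, plus strand) had the highest ratio of CD4 T cells over all other cells and the third over CD8 T cells. It encodes CD40 ligand, the surface protein through which helper cells activate B cells and antigen-presenting cells. It had 145 CPM (106 to 193) in CD4 T cells and 3.50 CPM in CD8 T cells, a ratio of 41.4 (16.5 to 133). It was found in 21 of 54 CD4 T cells and in 2 of 188 CD8 T cells, and in 0 of 572 epithelial cells, which allows a share of up to 0.524%. Its 47 UMIs were spread over the cells, with 9 in the highest. Without run 5, where 4 of the 5 CD8 UMIs lay, the log2 ratio was 7.56, against 5.37 with all runs. Against all other cells together, at 1.99 CPM, the ratio was 72.6 (51.2 to 101), the highest of the 3536 genes compared outside the gate genes and receptor segments. When each cell was reduced to 2000 UMIs, which left out 1 CD4 and 1 CD8 T cell, the share was 26.4% in CD4 T cells and 0.535% in CD8 T cells. These shares come from 1 random draw, and 20.3% and 0.770% would be found on average over such draws.

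St8sia6 and St8sia1 were among the 12 genes highest over CD8 T cells. St8sia6, a sialyltransferase that adds sialic acid to sugar chains, had 157 CPM (117 to 207) in CD4 T cells and 3.50 CPM in CD8 T cells, a ratio of 44.9 (18.0 to 144), with UMIs in 17 of 54 and 4 of 188 cells. St8sia1, an enzyme of the same family, had 151 and 28.7 CPM in CD4 and CD8 T cells, and was found in 23 of 54 and 28 of 188 cells. Without run 7 the log2 ratio of St8sia6 was 6.74, against 5.49 with all runs. St8sia6 was also found in 9.09% of epithelial cells and St8sia1 in 1.05%.

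Myo6, an actin motor that moves towards the minus end of filaments, had 139 CPM in CD4 T cells and 11.9 CPM in CD8 T cells, a ratio of 11.7 (6.54 to 21.7). It was also found in 29.7% of epithelial cells, against 27.8% of CD4 T cells and 6.91% of CD8 T cells. With each cell thinned to 2000 UMIs, Myo6 was found in 20.8% of CD4 T cells (10.8% to 34.1%), 0.535% of CD8 T cells and 9.94% of epithelial cells (7.56% to 12.8%). On average over such random draws, Myo6 would be found in 19.5% of CD4 T cells and 1.86% of CD8 T cells. Tgfbr3, the co-receptor betaglycan of the TGF-beta family, had 157 and 16.8 CPM in CD4 and CD8 T cells and was found in 20 of 54 and 16 of 188 cells, with 4.90% in epithelial cells, and its log2 ratio was 3.23 with all runs and 3.88 without run 7. Trib2, a pseudokinase, had 182 and 23.1 CPM and was found in 30 of 54 CD4 T cells and 27 of 188 CD8 T cells. Each of these genes was found in at least 15 of the 54 cells.

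Il2ra and Ctla4 completed the group of immune genes at the top of the ranking. Il2ra, the alpha chain of the interleukin-2 receptor, had 123 CPM (88.1 to 168) in CD4 T cells and 0.70 CPM, a single UMI, in CD8 T cells, a ratio of 176 with an interval from 29.8 to 7127. It was found in 9 of 54 CD4 T cells and 1 of 188 CD8 T cells, and 21 of its 40 UMIs were in the deepest cell. Without run 1 its log2 ratio was 5.68 and without run 7 it was 5.24, against 7.46 with all runs. Ctla4, a receptor that competes with CD28 and dampens activation, had 203 CPM (157 to 259) in CD4 T cells and 32.2 CPM in CD8 T cells, a ratio of 6.32 (4.27 to 9.41), in 17 of 54 and 16 of 188 cells. Without run 2 the log2 ratio of Ctla4 was 3.74, against 2.66 with all runs. Of their UMIs in CD4 T cells, 38 of 40 for Il2ra and 49 of 66 for Ctla4 lay in cells with Foxp3.

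Of the 12 highest genes, Ndrg3, Trp53bp2 and Dip2c had ratios of 5.48, 4.93 and 4.84 and were found in 13, 11 and 18 of the 54 cells, and 16 of 51 UMIs of Ndrg3 and 15 of 28 of Trp53bp2 lay in 1 cell. Without run 1 the log2 ratios of Ndrg3 and Dip2c were 1.09 and 1.35, and without run 7 they were 3.19 and 3.11, while that of Trp53bp2 was 0.52. Ifitm3, an antiviral membrane protein abundant in myeloid cells, ranked among them at 129 CPM in CD4 T cells and 18.9 CPM in CD8 T cells. Of its 42 UMIs, 40 lay in 1 cell that also held 53 Lyz2 UMIs. With the cells that held at least 10 Lyz2 UMIs left out, 2 CD4 and 6 CD8 T cells, its log2 ratio was -1.62, the opposite direction.

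Of the 12 genes lowest in CD4 T cells, 6 belong to the list of CD8 lineage and cytotoxic genes. Of its 17 members 6 reached the limit of 50 CPM, and these 6 were at least 2-fold lower in CD4 T cells, beside 1.85% of all genes compared. Klrd1, Ctsw and Gzma were under 50 CPM in CD4 T cells and passed the limit through the CD8 T cells, so they had to differ and the count is a description. Klrd1, which encodes the NK receptor chain CD94, had 40.1 CPM in CD4 T cells and 477 CPM in CD8 T cells, 11.9-fold lower (6.91 to 22.5), and was found in 1 of 54 and 117 of 188 cells. Nkg7, a protein of cytotoxic granules, had 52.4 and 440 CPM in CD4 and CD8 T cells, 8.40-fold lower (5.21 to 14.5), in 2 of 54 and 136 of 188 cells. The log2 ratio of Klrd1 was -4.73 without run 7 and -2.56 in run 7 alone, and that of Nkg7 was -4.44 without run 3. Runx3, the transcription factor that represses Cd4 in the CD8 lineage, had 67.8 and 300 CPM, 4.42-fold lower (2.88 to 7.13), in 11 of 54 CD4 and 135 of 188 CD8 T cells.

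Ctsw, a lymphocyte cathepsin, had 33.9 CPM in CD4 T cells and 197 CPM in CD8 T cells, and Gzma, granzyme A, had 24.7 and 152 CPM, with 6 of its 8 CD4 UMIs in 1 cell. The log2 ratio of Gzma was -2.62 with all runs, -3.37 without run 7 and -0.16 in run 7 alone. Ccl5, a chemokine stored in cytotoxic lymphocytes, had 98.6 CPM in CD4 T cells and 480 CPM in CD8 T cells. Its CD4 value came from 3 cells, of which 1 held 29 of the 32 UMIs. Its log2 ratio was -1.63 without run 5, -6.46 without run 7 and -0.87 in run 7 alone. Eomes, Gzmb, Gzmk, Gzmm, Klrk1, Klrc1 and Crtam were at 0 UMIs in all 54 cells. In CD8 T cells Eomes, the T-box factor of memory and killer cells, was found in 25 of 188 cells at 22.4 CPM.

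Outside that list, Fgf13, a growth factor homologue inside the cell, had 6.16 CPM in CD4 T cells and 137 CPM in CD8 T cells, 22.1-fold lower with an interval from 6.05 to 184 since the CD4 value rests on 2 UMIs. It was found in 2 of 54 and 46 of 188 cells, and its log2 ratio of -4.47 was -5.44 without run 5 and -3.67 without run 7. Ly6c2, a surface protein of the Ly6 family, was 5.65-fold lower. AW112010, Mctp2 and Auts2 were 4.98-, 4.70- and 4.32-fold lower, and the log2 ratio of Mctp2 was -2.91 without run 8. Mt1, a metallothionein, was 4.14-fold lower, but its direction turned: the log2 ratio was 0.48 without run 3 and 1.84 without the cells that held at least 10 Lyz2 UMIs.

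**Figure D2:**
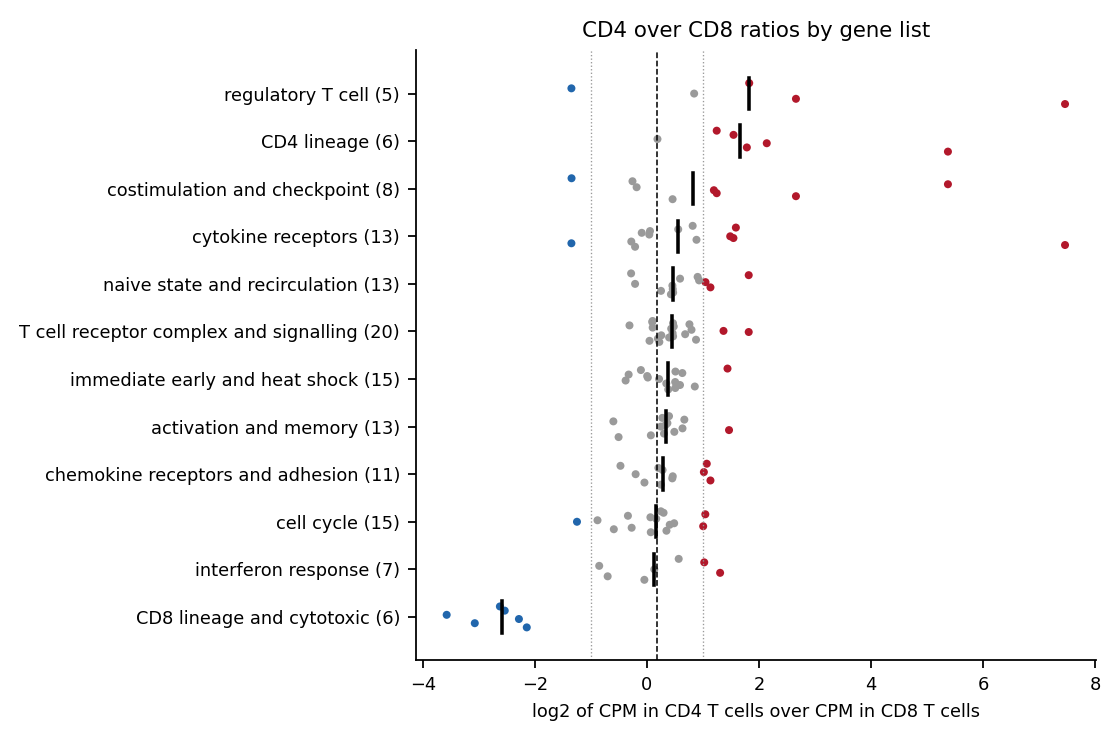
Log2 ratio of CPM in CD4 T cells over CPM in CD8 T cells for each compared member of the gene lists, with the number of compared members in brackets, for lists with at least 5. Short bars mark the list medians, the dashed line the median of all 3143 genes (0.17) and the dotted lines a 2-fold ratio. The CD4 lineage and regulatory T cell lists lie to the right with medians of 1.66 and 1.83, and the CD8 lineage and cytotoxic list lies to the left with -2.58.

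In the CD4 lineage list, 5 of 6 genes compared were at least 2-fold higher in CD4 T cells, against 6.27% of all genes compared, and the list median was 1.66. Cd40lg and Gata3 were under 50 CPM in CD8 T cells and passed the limit through the CD4 T cells. They had to be higher there, so the count is a description. Tox, a nuclear factor needed for CD4 T cell development in the thymus, had 650 CPM (566 to 744) in CD4 T cells and 148 CPM in CD8 T cells. Gata3, which supports the CD4 fate and drives type 2 helper cells, had 133 and 38.5 CPM in CD4 and CD8 T cells, a ratio of 3.44 (2.25 to 5.22), in 23 of 54 and 42 of 188 cells. Runx1 and the costimulator Icos had ratios of 2.92 and 2.37. Icos was under 2-fold without run 3 and without run 7, with log2 ratios of 0.92 and 0.98, and without the Foxp3 cells, with 0.99. Myb was the member without a 2-fold difference, at 67.8 and 59.5 CPM.

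Zbtb7b encodes ThPOK, the factor that fixes the CD4 fate. It lay under the limit for the ranking, with 33.9 CPM in CD4 T cells and 2.80 CPM in CD8 T cells, and was found in 10 of 54 and 2 of 188 cells. Epithelial cells also held it, in 15.2% of cells, beside 18.5% of CD4 T cells and 1.06% of CD8 T cells.

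**Figure D3:**
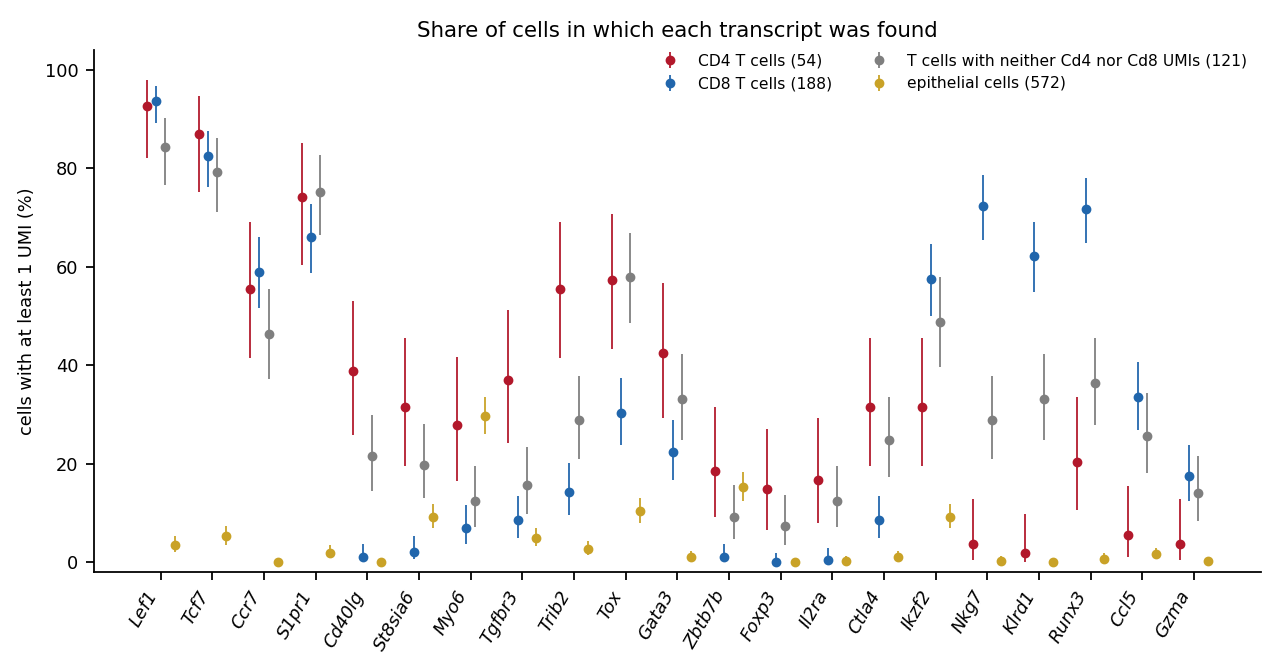
Share of cells with at least 1 UMI of each gene, in percent, in CD4 T cells, CD8 T cells, T cells with neither Cd4 nor Cd8 UMIs and epithelial cells, with exact binomial 95% intervals. Lef1, Tcf7 and Ccr7 have similar shares in CD4 and CD8 T cells, Cd40lg to Ctla4 are more often found in CD4 T cells, and Nkg7, Klrd1 and Runx3 are more often found in CD8 T cells. Median depths were 4565, 5610.5, 3794 and 6698 UMIs.

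The naive programme was strong in CD4 T cells and was shared with CD8 T cells. Of 15 genes of naive state and recirculation, a CD4 T cell held 10 in the median, from 4 to 13, and a CD8 T cell also held 10, from 2 to 14. Lef1 had 1430 CPM in CD4 T cells and 1063 CPM in CD8 T cells, a ratio of 1.35 (1.21 to 1.49). Tcf7, which encodes TCF1, had 657 and 475 CPM, a ratio of 1.38 (1.18 to 1.62). Against all other cells the ratios were 23.2 for Lef1 and 22.5 for Tcf7.

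Ccr7, the chemokine receptor that leads naive cells into lymph nodes, was found in 30 of 54 CD4 T cells and 111 of 188 CD8 T cells, at 287 and 241 CPM. Cd44, an adhesion receptor that is high on memory cells, was found in 14 of 54 and 53 of 188 cells. By these transcripts no difference between the lineages was detectable at this depth.

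Of the 13 naive genes compared, 3 were at least 2-fold higher in CD4 T cells and 0 lower, beside 6.27% higher and 1.85% lower over all genes compared, with a median log2 ratio of 0.47. S1pr1, the receptor that guides lymphocytes out of the thymus and lymph nodes, had 478 CPM in CD4 T cells and 218 CPM in CD8 T cells, a ratio of 2.19 (1.80 to 2.67). Satb1, a chromatin organiser of T cells, had 1708 and 828 CPM, a ratio of 2.06 (1.86 to 2.28). Igfbp4, a binding protein for insulin-like growth factors, had 284 and 80.5 CPM, but 35 of its 92 UMIs lay in 1 cell. Its log2 ratio was 1.11 without run 8, 2.64 without run 7 and -0.017 within run 7, while that of Satb1 was 0.72 without run 1. Il7r, the receptor for the survival cytokine interleukin-7, had 256 and 296 CPM.

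Of the transcripts of the T cell receptor machinery, 20 could be compared. Of these, 2 were at least 2-fold higher in CD4 T cells and 0 lower, a share near the 6.27% of all genes compared, and the median log2 ratio was 0.45. These 2 genes were Cd5, at 185 CPM in CD4 T cells and 52.5 CPM in CD8 T cells, and Cd6, at 126 and 49.0 CPM, whose log2 ratio was 0.98 without run 1. Both are scavenger receptors that tune T cell receptor signals, and Cd5 is known to follow the strength of self-recognition in the thymus. Cd6 was under 50 CPM in CD8 T cells and passed the limit through the CD4 T cells, so its direction was fixed. Trbc2 had a ratio of 1.03 (0.932 to 1.14) and Lck, the kinase bound to CD4 and CD8, a ratio of 1.15 (0.856 to 1.51). Camk4, a calcium-dependent kinase, had 946 and 424 CPM, a ratio of 2.23 (1.94 to 2.57) that was under 2-fold without run 1 (log2 0.94), and Trat1, an adaptor of the receptor complex, had 111 and 30.1 CPM.

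Against all other cells of the lung, 163 of 3536 genes (4.61%) were at least 4-fold higher in CD4 T cells and 383 (10.8%) at least 4-fold lower. After Cd40lg, the highest were B630019A10Rik at 126 CPM in CD4 T cells and 2.53 CPM in other cells, Cd5 with a ratio of 43.6, Cd6 with 42.3 and Trat1 with 38.5. Prkcq, the kinase PKC-theta of the immune synapse, had a ratio of 20.7, Cd28 had 19.3 and Bcl11b, the factor that keeps T cell identity, had 18.0. Themis, needed for positive selection, had 16.5. Of the T cell receptor list, 16 of 18 genes compared passed 4-fold, and of the naive list 10 of 13. Members under 50 CPM in the other cells, Cd5 and Cd6 among them, passed the limit through the CD4 T cells. They had to be higher there, so these counts are descriptions. The CD8 T cells make up 188 of the 11752 other cells, so this comparison is mainly one of T cells with cells of other kinds.

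The lowest genes against all other cells were those of neutrophils and macrophages. S100a8 and S100a9, the calprotectin subunits of neutrophils, had 9.25 and 6.16 CPM in CD4 T cells, against 3589 and 2916 CPM in other cells. Stfa1 was at 0 UMIs in CD4 T cells and had 1151 CPM in other cells, so it was at least 124-fold lower, computed with 3 counts over the CD4 T cells. Cstdc5, Cxcl2, Slc8a1, Tcf7l2, Lpl, Ear2 and Sirpa each had 1 UMI in the 54 cells.

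Foxp3 (chrX:7573644-7595245, plus strand) was found in 8 of 54 CD4 T cells, or 14.8% (6.62% to 27.1%). It was found in 0 of 188 CD8 T cells, which allows up to 1.596%, in 9 of 121 T cells with neither Cd4 nor Cd8 UMIs, and in 0 of 572 epithelial cells. The 8 cells held 1 to 6 UMIs each, 18 in all. Reducing each cell to 2000 UMIs left 3 of 53 CD4 T cells with Foxp3, where 3.71 would be found on average over such draws. Of the 8 cells, 6 were among the 26 CD4 T cells of run 7, 0 among the 11 of run 5 and 2 among the 17 of the other runs, and without run 7 the share was 7.14%.

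**Figure D4:**
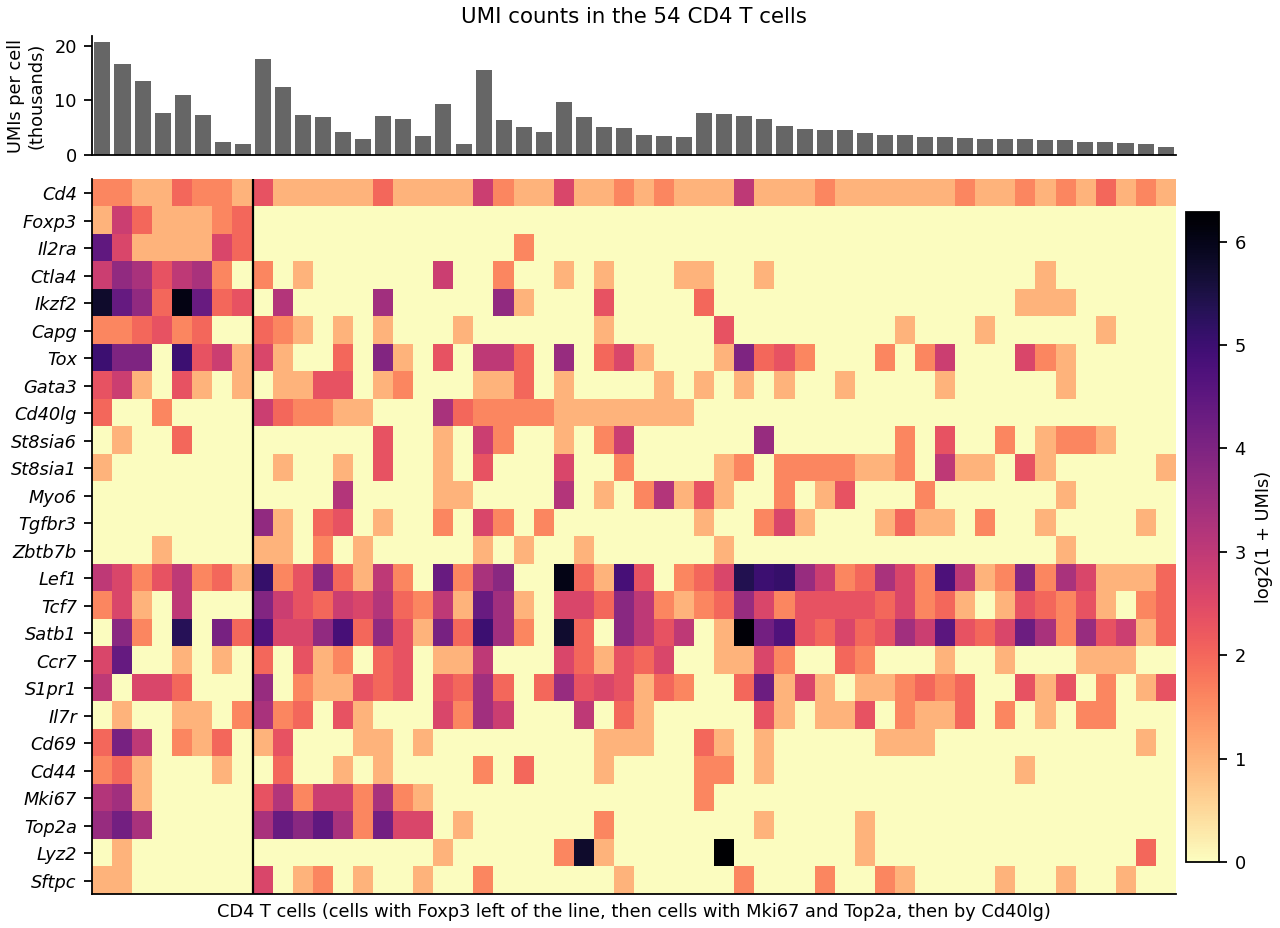
UMI counts of 26 genes (rows, as log2 of 1 + UMIs) in each of the 54 CD4 T cells (columns), with the total UMIs of each cell above. The 8 cells with Foxp3 stand left of the line and share Il2ra and Ikzf2 in all 8, while Myo6 and Tgfbr3 are at 0 in them; 9 further cells with Mki67 and Top2a stand to the right of the line.

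The cells with Foxp3 carried other genes of regulatory T cells, which the rule did not use. Il2ra was found in 8 of 8 of them and in 1 of 46 CD4 T cells without Foxp3, at 468 CPM and 8.22 CPM. Ikzf2, which encodes Helios, was found in 8 of 8 and 9 of 46 cells, at 2203 and 169 CPM. Ctla4 was found in 7 of 8 and 10 of 46 cells, at 603 and 69.9 CPM. Capg, an actin-capping protein, was found in 6 of 8 and 11 of 46 cells. The cells with Foxp3 were deeper, with a median of 9325.5 UMIs against 4274.5, which raises the chance of finding any transcript in them.

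Other genes had the opposite pattern. Tgfbr3 was found in 0 of 8 cells with Foxp3 and in 20 of 46 without, and Myo6 in 0 of 8 and 15 of 46, although the cells with Foxp3 were deeper. For 0 of 8 the exact binomial interval reaches 36.9%. It overlaps those of the cells without Foxp3, 28.9% to 58.9% for Tgfbr3 and 19.5% to 48.0% for Myo6. Igfbp4 and Slfn1 were likewise at 0 in the 8 cells and present in 21 and 18 of the 46. Lef1 had 382 CPM in cells with Foxp3 and 1781 CPM in cells without, and Tcf7 had 185 and 814 CPM. Cd40lg was found in 2 of 8 and 19 of 46 cells, at 61.5 and 173 CPM. Among the highest genes of the CD4 ranking, Il2ra and Ctla4 thus had a higher CPM in the cells with Foxp3, and Myo6, Tgfbr3 and Cd40lg a higher CPM in the cells without it.

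Of the regulatory T cell list, 3 of 5 genes compared were at least 2-fold higher in CD4 than in CD8 T cells and 1 was lower, beside 6.27% higher and 1.85% lower over all genes compared, and the median log2 ratio was 1.83. The lower one was Il2rb, the beta chain of the receptor for interleukin-2 and interleukin-15, at 61.6 CPM in CD4 T cells and 157 CPM in CD8 T cells, with a log2 ratio of -1.35 that was -3.14 without run 7 and -0.51 in run 7 alone, and that was also under 2-fold when no condition was set on Cd79a. Ikzf2 was under 2-fold, at 678 and 378 CPM, and was found in fewer CD4 T cells, 17 of 54, than CD8 T cells, 108 of 188. Among members under the limit for the ranking, Tnfrsf4 (OX40) had 77.1 CPM in CD4 T cells and 3.50 CPM in CD8 T cells, and Tnfrsf18 (GITR) had 74.0 and 11.9 CPM. With the 8 Foxp3 cells left out, the log2 ratio of Ctla4 was 1.12 and that of Il2ra 3.55, against 2.66 and 7.46 with them. Ctla4 and Il2ra were under 50 CPM in CD8 T cells (32.2 and 0.70) and passed the limit through the CD4 T cells. They had to be higher there, so the count of 3 of 5 is a description.

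The helper subsets were looked at through their factors and cytokines. Of the 12 genes of the type 2 list, Il5, Il13, Il9, Il1rl1 and Ptgdr2 were at 0 UMIs in all 54 CD4 T cells. Il4 gave 3 UMIs, all in 1 cell. Of the 2 genes of the list that were compared, Gata3 was past 2-fold, beside 6.27% of all genes compared. Gata3 had 38.5 CPM in CD8 T cells and passed the limit through the CD4 T cells, so it had to be higher there. The other, Il4ra, the interleukin-4 receptor, had 80.1 CPM in CD4 T cells and 43.4 CPM in CD8 T cells. A type 2 cytokine was thus detected in 1 of 54 CD4 T cells (1.85%, 0.0469% to 9.89%) and in 1 of 188 CD8 T cells.

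For type 17 cells, Il17a, Il22, Il23r, Ccr6 and Il1r1 were at 0 UMIs in all 54 cells, and Il17f gave 1 UMI. For type 1 cells, Tbx21, which encodes T-bet, had 2 UMIs in CD4 T cells (6.16 CPM) and 32.9 CPM in CD8 T cells, and Ifng was found in 2 of 54 and 17 of 188 cells. Il18r1, the interleukin-18 receptor, was higher in CD4 T cells at 133 and 44.1 CPM, but was found in 38.6% of epithelial cells, against 27.8% of CD4 T cells, and its log2 ratio was 0.62 without run 7. For follicular helper cells, Pdcd1 was at 0 and Cxcr5 was found in 4 of 54 cells. Over 12 effector cytokines, 4 of 54 CD4 T cells (7.41%, 2.06% to 17.9%) and 18 of 188 CD8 T cells (9.57%, 5.77% to 14.7%) held at least 1 UMI.

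These cytokine transcripts lay in few single cells. A cell of run 7 with 5077 UMIs held all 19 UMIs of Il2, with 1 of Il21, 1 of Tnf and 11 of Tnfrsf4. Another cell of run 7, with 12463 UMIs, held the 3 UMIs of Il4 and 1 of Ifng together with 6 UMIs of Zbtb16, which encodes the innate-like factor PLZF, and 9 UMIs of the gamma chain gene Tcrg-C2. A further cell of run 7, with 13511 UMIs, held Foxp3 at 3 UMIs together with all 13 UMIs of Klrd1, 29 of Ccl5, 6 of Gzma and 4 of the NK receptor Ncr1. All 17 UMIs of Nkg7 lay in this cell and in another cell with Foxp3. Each of these is 1 droplet, and whether it held 1 cell or a pair was not tested.

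Of 13 activation and memory genes compared, 1 was at least 2-fold higher in CD4 T cells, near the 6.27% of all genes compared: S100a6, at 1353 CPM in CD4 T cells and 490 CPM in CD8 T cells. It was found in fewer CD4 T cells, 29.6%, than CD8 T cells, 41.0%, so the higher sum came from fewer cells with more UMIs each. Its log2 ratio was 1.47 with all runs and 0.17 without run 7. Cd69, the early activation marker that also holds cells in tissue, had 160 and 153 CPM in CD4 and CD8 T cells. Of 15 immediate early and heat shock genes, which rise when tissue is handled, Rgs1 alone was past 2-fold, also near the 6.27% of all genes compared. Fos had 234 and 180 CPM, and Jun 142 and 78.4 CPM. The log2 ratio of Rgs1 was 0.33 without run 7 and -0.43 with at least 2 UMIs of Cd4 per cell.

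Among the interferon response genes, 2 of 7 compared were at least 2-fold higher in CD4 T cells and 0 lower, beside 6.27% higher and 1.85% lower over all genes compared: Ifi27l2a, at 632 and 256 CPM, and Slfn1, at 92.5 and 45.5 CPM. Slfn1 was under 50 CPM in CD8 T cells and passed the limit through the CD4 T cells, so its direction was fixed. Slfn1 was under 2-fold with any of 5 runs left out (log2 0.77 to 0.97). Mx1 was not in the table under that name. Isg15 had 24.7 and 22.4 CPM. Of 11 chemokine receptor and adhesion genes, 3 were higher, beside the same 6.27% of all genes compared: S1pr1, the integrin chain Itgb7 that directs cells to the gut (262 and 130 CPM), and Gpr183, the receptor for oxysterols (92.5 and 44.1 CPM). Gpr183 was under 50 CPM in CD8 T cells and passed the limit through the CD4 T cells, so it had to be higher there. Itgb7 was under 2-fold without run 1, 2 or 3 (log2 0.93 to 0.94), and Gpr183 without run 1, 5, 6 or 7 (0.60 to 0.99). Cxcr4 had 80.1 and 82.6 CPM. Cxcr6, a receptor of tissue-resident T cells, was found in 1 of 54 CD4 T cells and 20 of 188 CD8 T cells.

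Of 13 cytokine receptor genes, 4 were higher in CD4 T cells (Il2ra, Il6ra, Il6st, Il18r1) and 1 lower (Il2rb), beside 6.27% higher and 1.85% lower over all genes compared, with a median log2 ratio of 0.56. Il6ra and Il6st, the chains of the interleukin-6 receptor, had 157 and 86.3 CPM in CD4 T cells, against 53.9 and 30.8 CPM in CD8 T cells. Il2ra, Il6st and Il18r1 were under 50 CPM in CD8 T cells and passed the limit through the CD4 T cells, so they had to be higher there. Of 8 costimulation and checkpoint genes, read against the same shares of all genes, Ctla4, Icos, Btla and Cd40lg were higher and Cd226, an activating receptor also found on NK cells, was lower at 33.9 CPM in CD4 T cells and 86.1 CPM in CD8 T cells, with a log2 ratio of -1.34 that was -2.82 without run 7 and -0.69 in run 7 alone. Ctla4 and Cd40lg passed the limit through the CD4 T cells and Cd226 through the CD8 T cells. Their directions were thus fixed, and these counts are descriptions. The cytokine genes that reached the limit, Ltb (354 and 364 CPM) and Tgfb1 (117 and 86.8 CPM), had ratios close to 1.

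Among early-life genes, Igf2bp3, an RNA-binding protein of fetal programmes, had 157 CPM in CD4 T cells and 115 CPM in CD8 T cells, in 20 of 54 and 86 of 188 cells, with 34.4% in epithelial cells. Lin28b, which drives fetal lymphopoiesis, gave 2 UMIs in 2 CD4 T cells. Igf2bp2, Hmga2, Arpp21, Igf2 and H19 were at 0 in all 54 cells. Igf2bp3 was the 1 member of 15 that reached the limit for the ranking.

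A share of CD4 T cells was in cycle by its transcripts. Mki67 and Top2a together were found in 12 of 54 CD4 T cells (22.2%, 12.0% to 35.6%) and in 33 of 188 CD8 T cells (17.6%, 12.4% to 23.8%), and the intervals overlap widely. Mki67 alone was found in 13.6% of epithelial cells. Of 15 cell cycle genes compared, Birc5 and Ube2c were at least 2-fold higher in CD4 T cells, Tyms was lower, beside 6.27% higher and 1.85% lower over all genes compared, and the median log2 ratio was 0.17, the same as for all genes. Birc5 was under 2-fold without run 4, 7 or 8 (log2 0.72 to 0.99), Ube2c without run 1 or 4 (0.75 and 0.99), and Tyms was at -1.93 without run 7 and -0.21 in run 7 alone. Birc5 and Ube2c serve mitosis, and Tyms makes thymidylate for DNA synthesis. Of the 8 cells with Foxp3, 3 held Mki67, against 10 of the 46 without.

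Ribosomal protein transcripts, looked at after their place below the diagonal had been seen, were lower in CD4 T cells. Of 81 such genes compared, 77 had a ratio below 1, beside 1144 of all 3143 genes compared. The median log2 ratio of the 81 genes was -0.32. The 127 compared genes with a mean CPM of at least 1000 had a similar median, -0.27. The ribosomal genes among these were not set apart, so whether the shift was particular to ribosomal genes was not tested. Together the 81 ribosomal genes had 230705 CPM in CD4 T cells and 283805 CPM in CD8 T cells. In the median cell they made up 26.6% of UMIs in CD4 T cells and 31.7% in CD8 T cells. The same order was seen in run 7 (22.3% and 30.3%), in run 5 (34.1% and 36.4%) and in the other 6 runs together (25.01% and 31.0%). CPM add up to a fixed total, and the part of this share in the median log2 ratio of 0.17 over all genes was not tested.

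**Figure D5:**
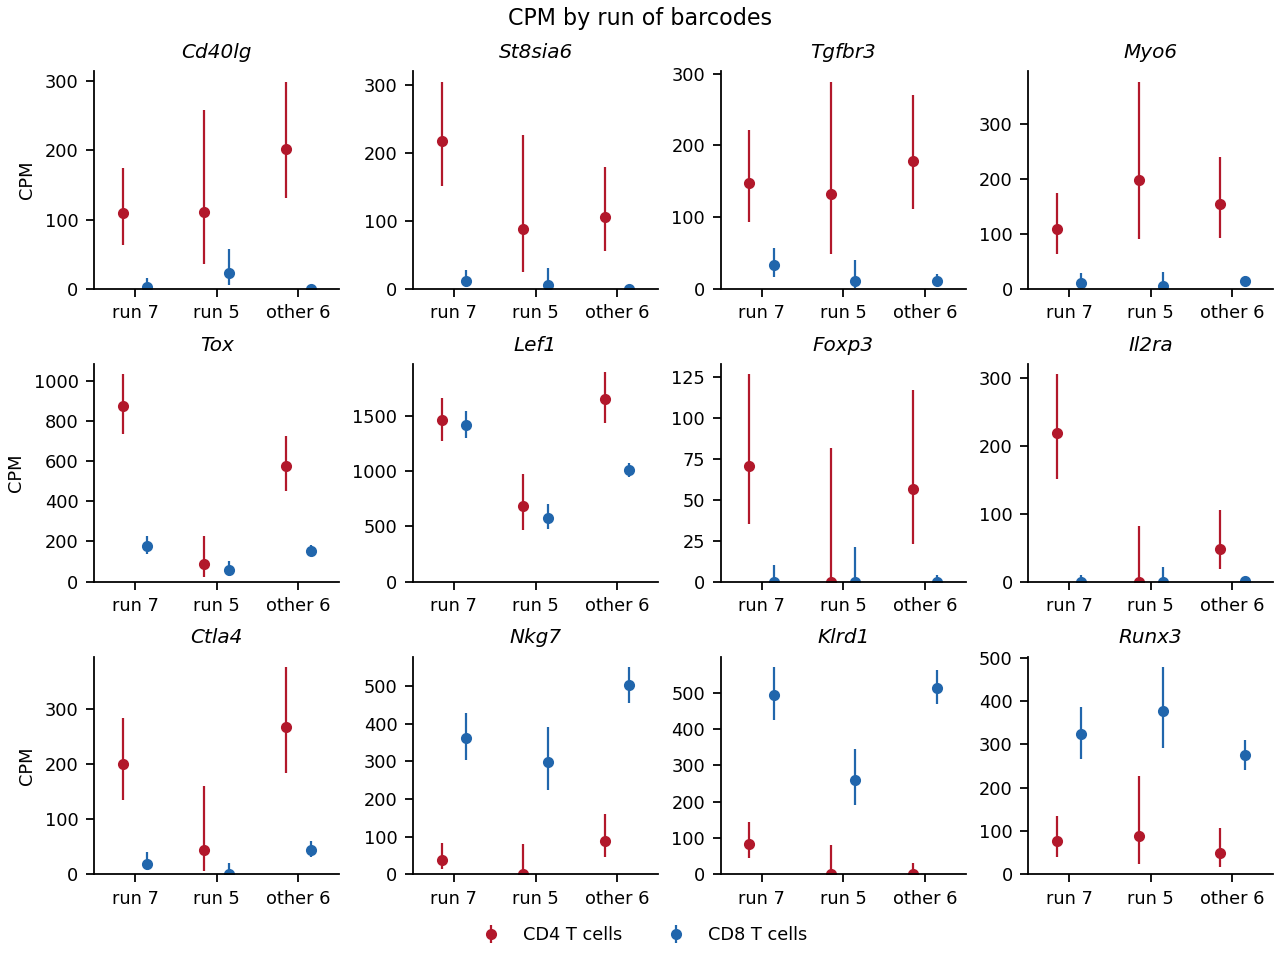
CPM of 12 genes in CD4 T cells and CD8 T cells of run 7, run 5 and the other 6 runs together, with exact Poisson 95% intervals. Cd40lg, Tgfbr3 and Myo6 are higher in CD4 T cells and Nkg7 and Klrd1 lower in each of the 3 sets of runs, while Foxp3 and Il2ra are at 0 UMIs in the CD4 T cells of run 5.

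CD4 T cells were unevenly spread over the runs. The 8 runs held 5, 1, 1, 8, 11, 1, 26 and 1 of them, and their share of a run's cells ranged from 0.0584% to 0.775%. Relative to CD4 and CD8 T cells together, CD4 T cells made up 22.3% overall (17.2% to 28.1%), and from 3.57% to 27.8% in single runs. A run is not known to be a library, so this spread is a description and no replicate error. Run 7 held 48.1% of the CD4 T cells and 37.2% of the CD8 T cells, so its weight in the sums was larger in CD4 T cells.

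The main differences were also seen inside runs. Cd40lg had 109 CPM in CD4 T cells and 2.74 CPM in CD8 T cells of run 7, 111 and 22.5 CPM in run 5, and 202 and 0 CPM in the other runs. Tgfbr3 had 148 and 32.8 CPM in run 7, 133 and 11.3 CPM in run 5, and 178 and 11.3 CPM in the other runs. Nkg7 had 38.5 CPM in CD4 T cells and 361 CPM in CD8 T cells of run 7, 0 and 299 CPM in run 5, and 89.1 and 501 CPM in the other runs. Tox differed more between runs, with 873 and 178 CPM in run 7 and 88.4 and 56.4 CPM in run 5. Over 18 other ways of choosing and summing the cells, 28 of the 55 described genes past 2-fold stayed past 2-fold in the same direction each time, among them Cd40lg, St8sia6, Myo6, Tgfbr3, Trib2, Ctla4, Gata3, Tox, Klrd1, Nkg7 and Runx3.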

How the data were processed

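Libraries were made from sorted lung cells with a droplet 3' kit and read by UMI. Per the submitters' processing notes, Cell Ranger 1.3.1 (version as given there) and build mm10 were used; strand and intron settings are not stated there. The deposited table holds raw UMI counts as whole numbers, which the authors had neither normalized nor scaled. Its 11806 cells were already filtered, as the values show: none has fewer than 800 genes or more than 9.99% mitochondrial counts. No cell was removed here, and 0 columns belong to another series.

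Cells were gated on raw UMIs, counts were summed per gate (numpy 2.4.6, pandas 2.3.3), and ratios of CPM were taken for genes with a mean of both CPM of at least 50. Intervals at 95% are exact Poisson for CPM and exact binomial (Clopper-Pearson, scipy 1.17.1) for shares and ratios. UMIs within a cell are not independent, so intervals cover counting error only. A count of 0 was bounded by 3 counts. The ratio code was tested on simulated data. Doublets were kept; an alternative removed the highest Scrublet scores (scanpy 1.11.5) at 0.8% per 1000 cells of a run. Free RNA was not subtracted.

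Named genes were the 12 highest and 12 lowest against CD8 T cells, the 20 highest and 10 lowest against all other cells, receptor segments left out, and the list members. The members of the gate and the lists were chosen with earlier results of these data known. Hyperoxia and air were not compared, for want of a key from cells to libraries. Gene coordinates are from GENCODE M21 on GRCm38 (mm10). Some members of the lists are not reported here by name.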

Additional observations from a re-analysis of the deposited data

How the results depend on the processing

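No paired analysis was possible because the columns carry no replicate numbers and no result comes from a test. With at least 2 UMIs of Cd4 per cell, CD4 T cells made up 0.161% of all cells and 9.18% of CD4 and CD8 T cells, and 497 genes were at least 2-fold higher and 110 lower than in CD8 T cells. Thinning to 2000 UMIs gave a Foxp3 share of 5.66% and 337 genes higher and 130 lower than in CD8 T cells. A minimum mean CPM of 20 gave 503 higher and 229 lower against CD8 T cells and 286 and 808 against all other cells, and a minimum of 100 gave 69, 19, 91 and 170. More or fewer genes were compared by construction in these. With each run left out in turn, the share of all cells was 0.331% to 0.525%, the share of CD4 and CD8 T cells 19.2% to 24.8%, the Foxp3 share 7.14% to 18.6%, and the counts 164 to 299, 51 to 119, 143 to 175 and 367 to 417. The 0.331%, 7.14%, 299 and 119 came without run 7. Leaving out T cells with at least 10 Lyz2 UMIs, the deepest CD4 T cell or the Foxp3 cells, and taking run 7 alone, were chosen after seeing the data: run 7 alone gave 0.775% of all cells, 337 genes higher and 106 lower than in CD8 T cells, and without the 8 Foxp3 cells 91 were lower. Directions turned for Rgs1 (-0.43, at least 2 UMIs of Cd4), Mt1 (0.48 without run 3 and -3.23 without run 7, 1.84 without cells with at least 10 Lyz2 UMIs, 1.01 in run 7 alone), Ifitm3 (-1.57 without run 4 and 3.73 without run 3, -1.62 without those cells), Igfbp4 (-0.017) and Slfn1 (-0.21), both in run 7 alone, as log2 ratios of CD4 over CD8 T cells. The causes were not tested. Removing high doublet scores, requiring 2 CD3 UMIs or dropping the Cd79a condition moved no share out of its interval and no count by 1.5 times. A transcript found in 0 of 54 cells may still be detected in up to 5.56% of such cells, and molecules missed at this depth are not covered by that bound.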
